A study of Mus musculus with 12 samples.

Results

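The genes described here are Gpx3 and 7 further selenoprotein genes of the mouse kidney: Gpx1, Gpx4, Sepp1 (now named Selenop), Dio1, Txnrd2, Msrb1 and Sephs2. They were chosen by name, and all 8 were found among the 46882 gene names of the count table. The mice were C57BL/6, at an age of 6 to 8 weeks, and whole kidney RNA was sequenced from 6 wild-type animals (WT) and 6 with the genotype A1cf -/- (A1cf KO), and each library is named by the number in its label. The labels give no promoter, Cre driver, sex or other agent, and they do not say how the A1cf allele was made. The series describes the 6 libraries of a genotype as biological replicates.

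Selenoproteins carry selenocysteine, an amino acid that holds selenium in place of the sulphur of cysteine. Selenocysteine is inserted at UGA, which is otherwise a stop codon, when the mRNA also carries a stem-loop in its 3′ untranslated region that recruits the insertion machinery. The kidney is known as the main source of the glutathione peroxidase of blood plasma, Gpx3, which is made by proximal tubule cells and secreted, and the kidney also takes up selenoprotein P from the filtrate.

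The in-frame UGA codon is what these genes share in sequence, and it is shown for the 3 glutathione peroxidases among them and for the cysteine-containing Gpx6 and the others whose values are described below. The stretches are coding sequence of GENCODE M21 transcripts (build GRCm38, which mm10 also denotes), 5′ to 3′ on the coding strand. The selenocysteine codon is in capitals between 18 bases on each side, except where the coding sequence ends sooner. In Gpx6 the capitals mark the codon that lies at the same place in an alignment without gaps.
Gpx3: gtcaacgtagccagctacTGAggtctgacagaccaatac
Gpx1: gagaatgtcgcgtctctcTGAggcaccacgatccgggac
Gpx4: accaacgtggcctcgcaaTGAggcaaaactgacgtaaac
Gpx6: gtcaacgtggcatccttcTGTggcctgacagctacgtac
Sepp1, first codon: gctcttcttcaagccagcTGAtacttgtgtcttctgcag
Dio1: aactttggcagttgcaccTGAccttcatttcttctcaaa
Txnrd2: cctactgtgactggttgcTGAggctaa
Msrb1: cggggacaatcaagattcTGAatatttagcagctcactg
Sephs2: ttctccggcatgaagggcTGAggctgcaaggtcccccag

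In Gpx3 the selenocysteine codon is codon 73 of 226 and lies in exon 2 of 5 (chr11:54907256-54907258, plus strand). Gpx4 has it at codon 73 of 197 (exon 3 of 7, chr10:80054737-80054739, plus strand), and Gpx1 at codon 47 of 201 (exon 1 of 2, chr9:108339451-108339453, plus strand). Of the 36 flanking bases shown for Gpx3, 20 were the same in Gpx4, 16 in Gpx1 and 25 in Gpx6. The other cysteine homologues had 28 (Gpx5), 27 (Gpx7) and 22 (Gpx8), so over this stretch all 4 were nearer to Gpx3 than the selenium-containing Gpx1 and Gpx4 were. Gpx6 has TGT, a cysteine codon, at codon 73.

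The other members place the codon differently. Sepp1 has 10 in-frame selenocysteine codons among 380, the first at codon 59 (exon 2, chr15:3274848-3274850) and the last at codon 377, and the other 9 lie in the last of its 5 exons. Dio1 has it near the middle, at codon 126 of 257 (exon 2 of 4, chr4:107297700-107297702, minus strand). Msrb1 has it at codon 95 of 116 (exon 3 of 5, chr17:24740158-24740160, plus strand). Sephs2 has it at codon 63 of 452 in its only exon (chr7:127273731-127273733, minus strand). In Txnrd2 it is codon 526 of 527, the last but one before the stop, in exon 17 of 17 (chr16:18477772-18477774, plus strand). In all 8 genes the in-frame TGA codons found in the sequence were the ones that the annotation marks as selenocysteine. A stop codon that lies well upstream of the last exon junction is, as background, what nonsense-mediated decay acts on. The selenocysteine codon lay 105 bases before the last junction in Gpx1, 240 in Gpx3, 342 in Gpx4, 303 in Dio1, 66 in Msrb1 and, for the first codon, 357 in Sepp1. In Txnrd2 it lay after the last junction, and Sephs2 has no junction.

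**Figure D1:**
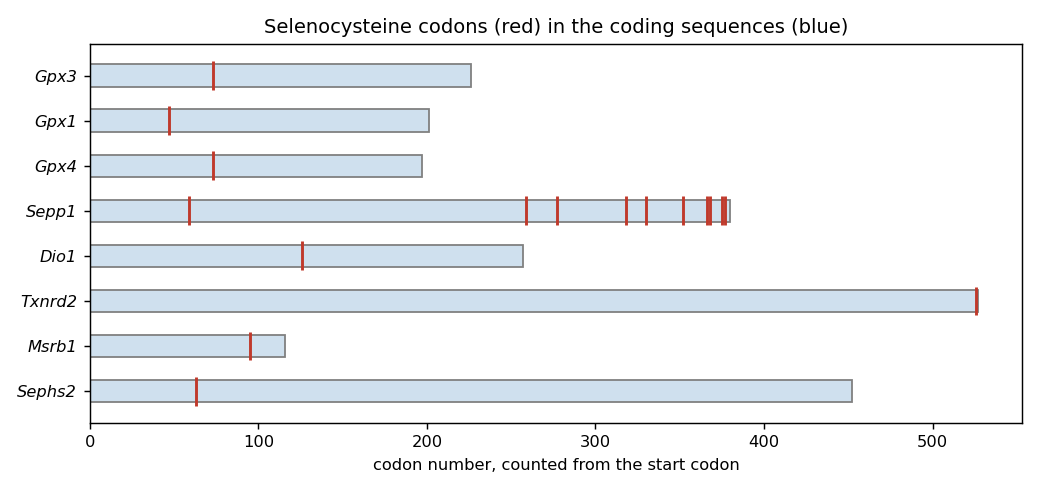
Coding sequences of the 8 genes as blue bars (x axis, codon number from the start codon) with each selenocysteine codon as a red line. Sepp1 carries 10 such codons, Txnrd2 has its only one at codon 526 of 527, and the 3 peroxidases have theirs between codons 47 and 73.

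Gpx3 was among the most abundant transcripts of these kidneys. It took between 2.15% and 3.05% of all counts of a library, and its rank by counts among genes not encoded by the mitochondrial genome was 1 in WT 776 and 2 in the other 11 libraries. Of the counts on all selenoprotein genes, Gpx3 took 82.1% ± 1.07 in WT and 79.98% ± 1.17 in A1cf KO, a share that overlapped between genotypes and ran from 78.5% to 83.2%. Levels between genes are compared per length, as RPKM (the count divided by the exon length in kilobases and by the TMM-scaled library size). The length is that of all exons of a gene name, which can exceed that of the transcript present in kidney. The order of genes on the RPKM scale depends on this length. On that scale Gpx3 stood at 13798 ± 1658 RPKM over the 12 libraries (SD, n = 12) and was number 5 of all gene names, after Kap, mt-Co1, mt-Cytb and mt-Nd1.

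Below Gpx3 the order of the selenoprotein genes was steep. Gpx1, the cytosolic peroxidase, followed at 1189 ± 183 RPKM, which is 11.6 times lower. Sepp1 followed at 711 ± 72.7 and Gpx4, the peroxidase that reduces lipid hydroperoxides in membranes, at 364 ± 42.1 RPKM. The library ranges of these 4 genes did not overlap, so their order was the same in 12 of 12 libraries.

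Msrb1, which reduces oxidised methionine in proteins, stood at 139 ± 14.3 RPKM and Sephs2, which makes the selenophosphate used for selenocysteine, at 136 ± 14.9 RPKM. On these values the neighbours did not differ beyond their spread, with Msrb1 the higher in 8 of 12 libraries. However, 36.4% of the length of Sephs2 is shared with a gene on the opposite strand, and the counting command has no option to count reads that fall on both genes. The value of Sephs2 is divided by its full length and can understate its level, so its order against Msrb1 is not settled. Dio1, a deiodinase of thyroid hormone, was at 11.3 ± 5.36 RPKM and Txnrd2, the mitochondrial thioredoxin reductase, at 5.69 ± 0.67 RPKM. Dio1 was above its next neighbour Txnrd3 in 6 of 12 libraries, and Txnrd2 was below Selo in 6 of 12, so the places of both in the order are not settled by their means.

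Of the 24 mouse selenoprotein genes, 23 were matched in the table, and Selv was not analysed here. Between Sephs2 and Dio1 came Selt (69.5 ± 4.998 RPKM), Txnrd1 (64.7 ± 12.3), Selk (48.2 ± 2.63), Sepw1 (43.9 ± 6.77), Sep15 (37.7 ± 2.51), Vimp (28.9 ± 2.08) and Selm (21.2 ± 3.30). Txnrd3 (10.5 ± 1.22), 2700094K13Rik, which encodes selenoprotein H (9.02 ± 1.35), and Selo (5.73 ± 0.71) stood near Dio1 and Txnrd2. Sepn1 and Ept1 were lower, at 1.52 ± 0.25 and 1.48 ± 0.093 RPKM. The place of Ept1 depends on its length of 13135 bases, against 4401 for Txnrd2, as they averaged 19.5 and 25.1 CPM. In the same way Sep15 averaged 219 CPM over 5819 bases and Sepw1, placed above it, 32.3 CPM over 736 bases. The lowest were Dio3 (0.16 ± 0.083), Dio2 (0.035 ± 0.044) and Gpx2, the peroxidase of the gut epithelium. Gpx2 had no read in 10 of 12 libraries, where a count of 0 allows up to 0.0561 to 0.11 CPM (3 counts, counting error only). That bound takes counts as independent events. It can be too low, because 83.7% of counts from 2 to 9 were even. The kidney profile thus held 1 peroxidase far above the others and almost no transcript of the other deiodinases.

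**Figure D2:**
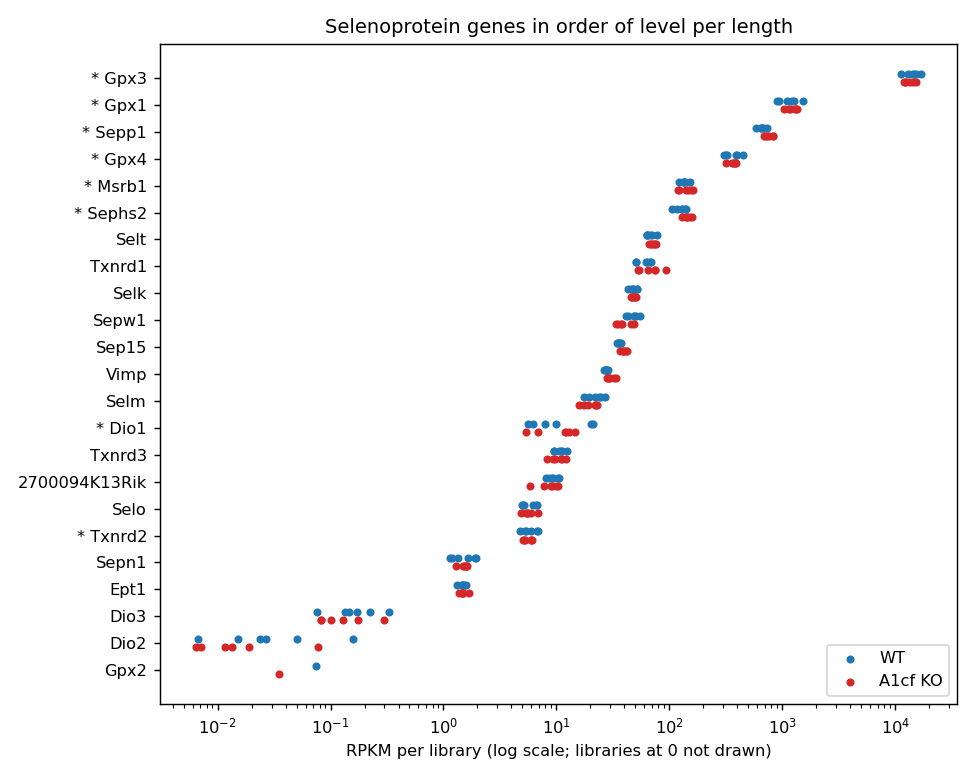
RPKM per library (x axis, log scale) of the 23 selenoprotein genes in order of their mean, with the 6 WT libraries in blue and the 6 A1cf KO libraries in red, and an asterisk at the 8 genes described in detail. Gpx3 lies 11.6 times above Gpx1, and Dio2, Dio3 and Gpx2 lie below 1 RPKM in every library.

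All comparisons of genotype use CPM (the count relative to the TMM-scaled library size, as for RPKM but without the length) and edgeR's quasi-likelihood test with Benjamini-Hochberg adjustment over all 16910 genes tested. A positive log2 fold change means a higher level in A1cf KO, and intervals are 95% intervals from the same fit. Total counts ran from 26671705 to 52899139 per library, and the lowest count of a member in any library was 330 (Dio1). A1cf itself stood at 54.5 ± 7.39 CPM in the WT libraries and 4.11 ± 1.07 CPM in the others, without overlap, so the libraries matched their labels.

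None of the 8 genes passed the threshold of 0.05 on the adjusted p, and none of the 21 tested selenoprotein genes did. Over all genes tested, 8 passed (0.0473%), so a count of 0 among so few genes is near that background. Without adjustment, 2 of the 8 members (25%) and 5 of the 21 (23.8%) had a p under 0.05, where the background was 10.4% of all genes. Of the 5, 4 were higher in A1cf KO and 1 was lower, against 5.07% and 5.28% of all genes. DESeq2 called 0 selenoprotein genes as well and gave no adjusted p for Dio3, against 1.11% of the genes for which it gave one. The median log2 fold change was 0.036 over the 8 members, 0.012 over the 21 and -0.0030 over all genes tested. The genotypes overlapped for all 21, where 0.84% of all genes did not overlap. The libraries are whole kidneys, in which fewer cells of a type and less RNA per cell cannot be told apart.

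Among the peroxidases, Gpx3 in WT ran from 20337 CPM, with a median of 26306, to 30805. In A1cf KO it ran from 21878 CPM, with a median of 23658, to 27673. All A1cf KO libraries lay inside the WT range, which was set by WT 777 at the low end and WT 590 at the high end. The means were 25778 ± 3603 and 24255 ± 2346 CPM (SD, n = 6 each), the log2 fold change was -0.088 (SE 0.11) and the edgeR adjusted p was 0.818. The interval on the fold ran from 0.80 to 1.11, so a fall of Gpx3 below 0.80 of the WT level lies outside it.

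Gpx1, which removes hydrogen peroxide in the cytosol, spanned 1296 CPM (median 1664) to 2212 in WT, with A1cf KO running from 1489.6 (median 1769.7) to 1958. The A1cf KO libraries again lay inside the WT range, between the same WT 777 and WT 590. The fold was 1.05 with an interval from 0.88 to 1.26. Gpx4 ran from 529 CPM (median 609.8) to 771 in WT and, in A1cf KO, from 550.3 (median 638) to 675, with a fold of 1.01 and an interval from 0.88 to 1.16. The edgeR adjusted p was 0.875 for Gpx1 and 0.975 for Gpx4. The sign of both depended on which animals were compared: over the libraries numbered 573 to 602 alone, of which 3 are WT and 5 A1cf KO, Gpx1 had a log2 fold change of -0.023 and Gpx4 of -0.056.

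Sepp1 encodes the selenoprotein that carries selenium in plasma, mostly from the liver, and that is also transcribed in kidney. Its level ran from 1666 CPM (median 1883) to 2104 in WT and, in A1cf KO, from 1943 (median 2135) to 2354. All 6 A1cf KO libraries were above the WT mean and 3 were above the highest WT library. The means were 1884 ± 143 and 2159 ± 168 CPM, with a log2 fold change of 0.20 (SE 0.073), an unadjusted p of 0.0171 and an edgeR adjusted p of 0.38. The interval on the fold ran from 1.03 to 1.28 without adjustment for the number of genes, so that Sepp1 is not called. Within libraries 573 to 602 its log2 fold change was 0.11 (adjusted p = 0.80).

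Sephs2, itself a selenoprotein in the pathway that makes selenocysteine, also had a positive fold change that did not pass the threshold. It ran from 230.4 CPM (median 282) to 308 in WT and, in A1cf KO, from 279.5 (median 312) to 347. All 6 A1cf KO libraries were above the WT mean and 4 were above the highest WT library, WT 778. The means were 276 ± 29.3 and 315 ± 23.1 CPM, with a log2 fold change of 0.19 (SE 0.076), an unadjusted p of 0.0232 and an edgeR adjusted p of 0.40. Within libraries 573 to 602 it was 0.13 (adjusted p = 0.73). Of the exon length of Sephs2, 36.4% is shared with RP24-443B5.5, annotated on the opposite strand, and reads were counted without regard to strand. RP24-443B5.5 had at most 4 counts in a library, and reads within the shared part could not be assigned to either gene.

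Dio1 varied more than any other member. In WT it ran from 11.02 CPM (median 17.6) to 41.2, and in A1cf KO from 10.7 (median 23.7) to 28.9. WT 590 (41.2 CPM) and WT 601 (40.2 CPM) stood far above the other 4 WT libraries, which lay between 11.02 and 19.6 CPM. Its coefficient of variation over the 12 libraries was 47.6%, higher than that of 99.2% of 4875 genes with a mean level within a factor of 2, whose median was 9.86%. The log2 fold change was -0.15 (SE 0.34, edgeR adjusted p = 0.91), and the interval on the fold, 0.543 to 1.497, leaves much larger changes possible than for the other members. Its sign turned without WT 590 (0.094) or without WT 601 (0.074), and within libraries 573 to 602 it was -0.59.

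Txnrd2 keeps mitochondrial thioredoxin reduced. It ran from 20.8 CPM (median 24.95) to 30.1 in WT and, in A1cf KO, from 22.2 (median 24.6) to 26.9, all inside the WT range. Its fold was 0.96 with an interval from 0.83 to 1.10 (edgeR adjusted p = 0.86). Msrb1 ran from 152 CPM (median 169.5) to 193 in WT and, in A1cf KO, from 150.3 (median 181) to 205. Here A1cf KO 588 and 591 were at the low end (150.3 and 153 CPM) and 602 and 780 at the high end (205 and 198 CPM), so the spread within A1cf KO (SD 22.6) was wider than in WT (SD 13.1). The fold of Msrb1 was 1.04 with an interval from 0.92 to 1.18 (edgeR adjusted p = 0.84).

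**Figure D3:**
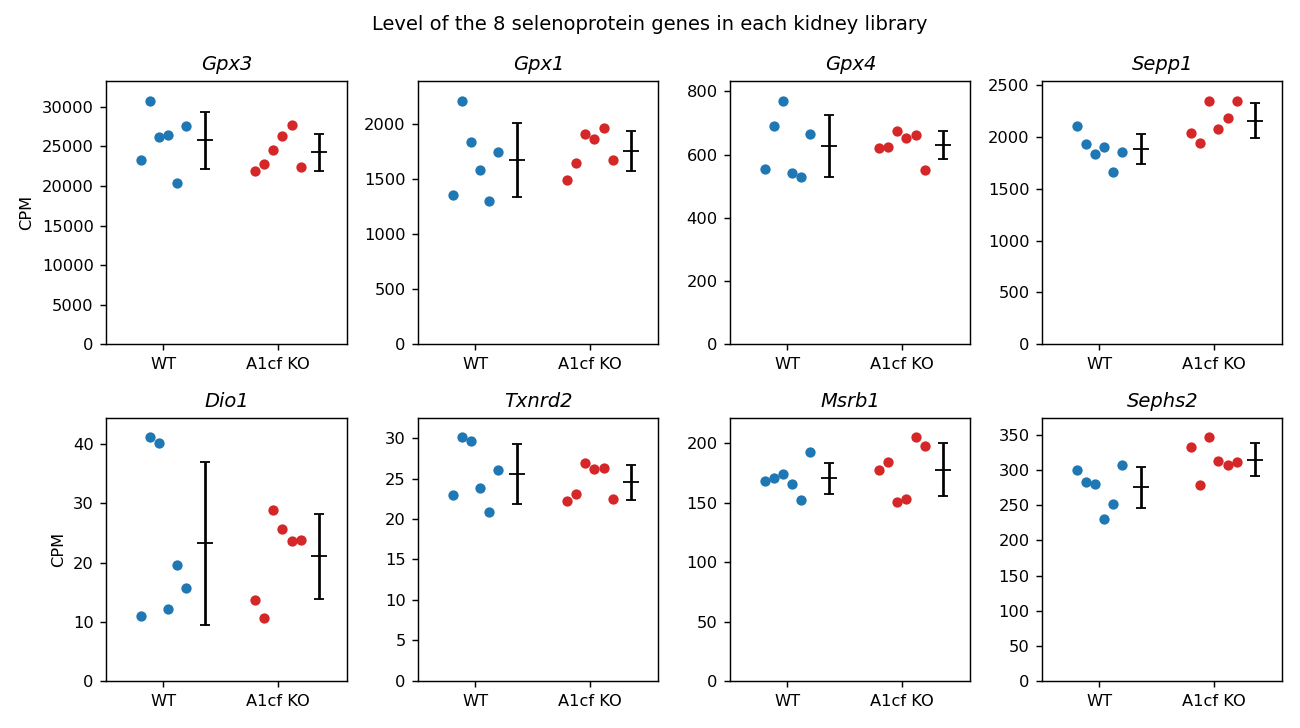
Each point is 1 library's CPM (y axis, from 0) for 1 of the 8 genes. WT is blue and A1cf KO red, 6 libraries each, and black bars give mean and SD. The genotypes overlap for every gene, all A1cf KO points of Sepp1 and Sephs2 lie above the WT mean, and WT 590 and WT 601 of Dio1 stand near 41.2 and 40.2 CPM.

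The other selenoproteins were named from a list of the whole family. Sep15 and Vimp are proteins of the endoplasmic reticulum. Sep15 averaged 208 ± 6.77 CPM in the WT libraries and 230.1 ± 11.8 CPM in A1cf KO, with 5 of 6 A1cf KO libraries above the highest WT library (log2 fold change 0.14, edgeR adjusted p = 0.35). Vimp was at 40.7 ± 1.11 and 44.6 ± 3.21 CPM, also with 5 of 6 above the highest WT library (0.13, adjusted p = 0.41). Sepw1, a small thioredoxin-like selenoprotein, was at 35.4 ± 3.66 and 29.2 ± 4.30 CPM, with 4 of 6 A1cf KO libraries below the lowest WT library (-0.28, adjusted p = 0.35). These 3 and Sepp1 and Sephs2 make up the 5 genes with an unadjusted p under 0.05.

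The rest of the family had smaller differences or wider intervals. Txnrd1, the cytosolic thioredoxin reductase, was at 207 ± 27.2 and 235 ± 51.7 CPM, and its highest library was A1cf KO 584 at 318 CPM (log2 fold change 0.18, edgeR adjusted p = 0.66). In WT, Txnrd1 was lowest in WT 590 (173 CPM) and WT 601 (175 CPM), the libraries in which Txnrd2 and Dio1 were highest. Selt, a thioredoxin-like protein of the endoplasmic reticulum, was at 232 ± 18.7 and 246 ± 13.4 CPM (0.085, adjusted p = 0.66). Selm, of the same compartment, was at 33.2 ± 5.17 and 29.6 ± 4.28 CPM (-0.16, adjusted p = 0.65), and 2700094K13Rik at 10.6 ± 1.10 and 9.79 ± 1.88 CPM (-0.11, adjusted p = 0.79). The log2 fold changes of Selk (0.015), Ept1 (0.022), Sepn1 (-0.013), Selo (-0.029) and Txnrd3 (-0.055) were nearer to 0. Of the 21 tested genes 11 had a positive and 10 a negative fold change, and 49.2% of all genes had a positive one. The range ran from -0.32 in Dio3, which had at most 30 counts in a library, to 0.20 in Sepp1.

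**Figure D4:**
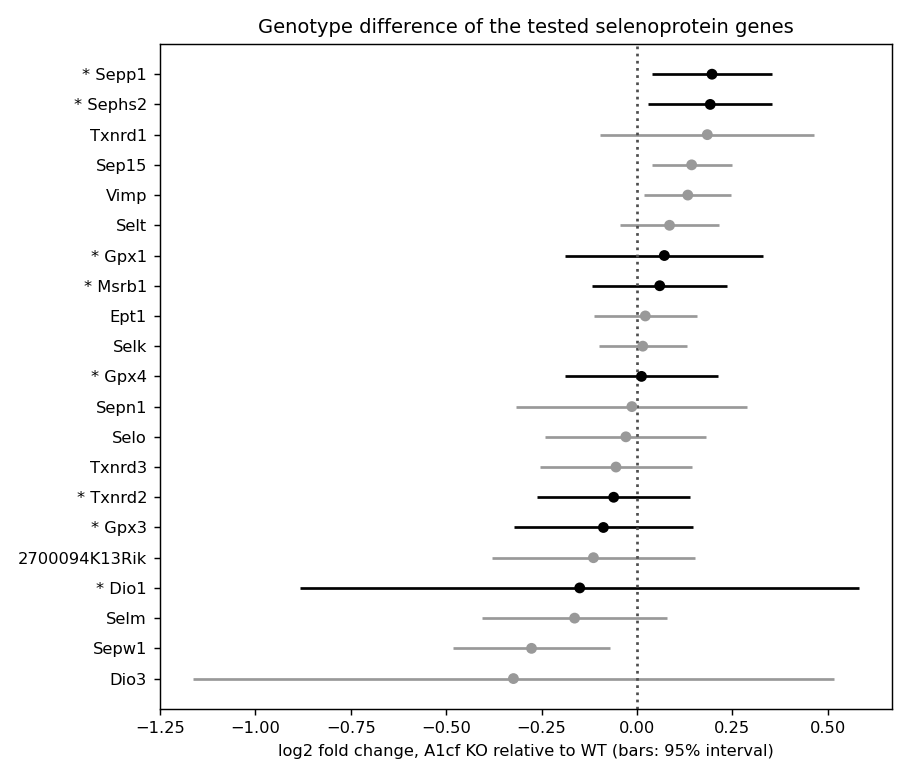
Log2 fold change, A1cf KO relative to WT (x axis, points), with its 95% interval (bars, not adjusted for the number of genes) for the 21 tested selenoprotein genes, black with an asterisk for the 8 genes described in detail. Sepp1 is the highest at 0.20 and its interval leaves out 0, that of Gpx3 (-0.088) spans 0, and the interval of Dio1 reaches from -0.88 to 0.58.

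Selenocysteine is made on its own tRNA and inserted with the help of further factors. The list of 13 genes for these steps also held genes not dedicated to them, among them Sars, Rpl30, Ncl and Eif4a3. None of the 13 was called by edgeR or DESeq2. Of these, 6 had a positive and 7 a negative fold change, with a median of -0.0091. Among all genes tested 49.2% had a positive one, and 10.4% had an unadjusted p under 0.05 by edgeR. Secisbp2, which binds the stem-loop of selenoprotein mRNAs, was at 33.4 ± 1.75 and 33.2 ± 1.51 CPM. Sephs1, the selenium-free paralogue of Sephs2, was at 50.01 ± 2.11 and 46.3 ± 2.74 CPM (log2 fold change -0.11, unadjusted p = 0.046, edgeR adjusted p = 0.47), the only 1 of the 13 with an unadjusted p under 0.05. Its sign was opposite to that of Sephs2. Secisbp2l, a relative of Secisbp2, was at 82.6 ± 8.58 and 90.9 ± 5.58 CPM, with 6 of 6 A1cf KO libraries above the WT mean (0.14, adjusted p = 0.51).

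Uptake and turnover of selenium gave 0 calls among 8 genes by either tool, and 0 of them had an unadjusted p under 0.05. Lrp2, megalin, takes up selenoprotein P in the proximal tubule and stood at 2224 ± 296 CPM in WT kidneys and 2514 ± 338 in A1cf KO (log2 fold change 0.18, edgeR adjusted p = 0.58). Inmt, a methyltransferase, was at 869 ± 154 and 920 ± 161 CPM (0.083). Selenbp2, a selenium-binding protein, was at 22.5 ± 8.04 and 28.2 ± 10.3 CPM (0.33, adjusted p = 0.68). Lrp1, an endocytic receptor related to megalin, was at 54.8 ± 14.02 and 66.0 ± 15.8 CPM (0.27, adjusted p = 0.62). Of the 8 fold changes 6 were positive, with a median of 0.115. Among all genes tested 49.2% were positive, and 10.4% had an unadjusted p under 0.05 by edgeR.

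Enzymes that do the same kinds of work without selenium were compared beside them, and 0 of 13 tested passed by either tool. Gpx6 had the smallest p. It ran from 29.6 CPM (median 41.2) to 50.2 in WT and, in A1cf KO, from 27.5 (median 30.2) to 33.2, with 6 of 6 A1cf KO libraries below the WT mean. WT 590 (30.9 CPM) and WT 601 (29.6 CPM) lay among the A1cf KO libraries. The log2 fold change was -0.38 (SE 0.11, unadjusted p = 0.00409), the edgeR adjusted p was 0.29 and DESeq2 gave 0.094. Prdx3, the mitochondrial peroxiredoxin, was at 197 ± 18.4 and 178 ± 8.81 CPM (-0.15, adjusted p = 0.45). Prdx5 and Cat, catalase, were the most abundant of the list, at 1410 ± 168 and 1344 ± 143 CPM and at 1261 ± 35.4 and 1335 ± 57.9 CPM. In this list 10 of 13 fold changes were negative, with a median of -0.069, and 2 had an unadjusted p under 0.05, both negative. Among all genes tested 49.2% of fold changes were positive, and 5.28% were negative with an unadjusted p under 0.05 by edgeR.

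The electron donors of these enzymes and the genes around Gpx4 and Dio1 held 0 calls by either tool too. Among 8 thioredoxin and glutathione genes, Txn1, cytosolic thioredoxin, was at 264 ± 18.8 and 243 ± 5.69 CPM (log2 fold change -0.12, edgeR adjusted p = 0.46), the only 1 of the 8 with an unadjusted p under 0.05. Gclm, a subunit of the enzyme that starts glutathione synthesis, was at 298 ± 40.7 and 337 ± 35.4 CPM (0.18, adjusted p = 0.53), and Gsr, glutathione reductase, at 175 ± 12.7 and 189 ± 13.4 CPM. The median of these 8 was -0.014. Around Gpx4, 9 genes of lipid peroxidation and iron storage were tested. Of these, Fth1, ferritin heavy chain, was at 3818 ± 538 and 4131 ± 370 CPM, and Lpcat3, which puts polyunsaturated fatty acids into phospholipids, at 146 ± 5.95 and 138 ± 5.08 CPM, with 0 of the 9 at an unadjusted p under 0.05 and a median of -0.046. Around Dio1, Thra, a thyroid hormone receptor, was at 63.4 ± 4.94 and 62.8 ± 4.75 CPM. There 0 of 5 genes had an unadjusted p under 0.05, with a median of 0.089. For all 3 lists the background was 10.4% of all genes tested at an unadjusted p under 0.05 by edgeR.

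Across libraries the members split in how they varied. WT 777 was the lowest library for 5 of the 8 genes (Gpx3, Gpx1, Gpx4, Sepp1 and Txnrd2), and WT 590 was the highest for 4 (Gpx3, Gpx1, Txnrd2 and Dio1). Gpx3 stood at 0.81 of its 12-library mean in WT 777 and at 1.23 in WT 590, and Txnrd2 at 0.83 and 1.20. Gpx1 stood at 0.76 and 1.29.

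Pearson's r of log2 CPM was computed for all 28 pairs of members over the 12 libraries, with permutation tests (100000 permutations, two-sided). Of the 28 pairs, 8 had an adjusted p under 0.05. The highest r was that of Gpx1 and Txnrd2, and the other 7 were Gpx3 with Gpx1 and with Txnrd2, Gpx4 with Gpx1 and with Txnrd2, Dio1 with Gpx1 and with Txnrd2, and Sepp1 with Sephs2. Gpx1 and Txnrd2 had r = 0.874 (permutation p = 3e-04, adjusted 0.0042) and rho = 0.888 (permutation p = 2.7e-04, adjusted 0.00378), with 0.757 without WT 590 and WT 777 and 0.855 within libraries 573 to 602. The r was 0.756 for Gpx1 and Gpx4 (permutation p = 0.00502, adjusted 0.0281), with rho = 0.804 (permutation p = 0.00269, adjusted 0.0205), 0.673 without WT 590 and WT 777, and 0.737 within libraries 573 to 602. Dio1 had r = 0.706 with Gpx1 (permutation p = 0.0108, adjusted 0.0432), with rho = 0.734 (permutation p = 0.00859, adjusted 0.0401), 0.773 without WT 590 and WT 777, and 0.855 within libraries 573 to 602. With Txnrd2, Dio1 had r = 0.733 (permutation p = 0.00779, adjusted 0.0364), with rho = 0.678 (permutation p = 0.0179, adjusted 0.0628), 0.721 without WT 573 and A1cf KO 584, and 0.967 within libraries 573 to 602. Gpx3 and Txnrd2 had r = 0.86 (permutation p = 6e-04, 0.0056 after adjustment over the 28 pairs) and Spearman's rho = 0.80 (permutation p = 0.00293, adjusted 0.0205). Gpx3 and Gpx1 had r = 0.82 (permutation p = 0.00127, adjusted 0.00889) and rho = 0.75 (permutation p = 0.00741, adjusted 0.0401). Without WT 590 and WT 777, the libraries farthest from the median of Gpx3, r was 0.73 and 0.61, and within libraries 573 to 602 (n = 8) it was 0.86 and 0.87. The 4 libraries 776 to 780 are too few for a value of their own.

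Gpx4 and Txnrd2 were also among the 8 (r = 0.87, permutation p = 2.1e-04, adjusted 0.0042, and rho = 0.88, permutation p = 2e-04, adjusted 0.00378). It was 0.77 without WT 601 and WT 777, and 0.84 within libraries 573 to 602. Gpx3 and Sepp1, the abundant secreted selenoproteins, were not (r = 0.030, permutation p = 0.93, adjusted 0.98, and rho = -0.028, permutation p = 0.94, adjusted 0.94). That value was -0.345 without WT 590 and WT 777, and -0.14 within libraries 573 to 602. Sepp1 and Sephs2 had r = 0.69 (permutation p = 0.0127, adjusted 0.0443) and rho = 0.69 (permutation p = 0.0166, adjusted 0.0628), with 0.48 without WT 777 and A1cf KO 588 and 0.82 within libraries 573 to 602. Both genes had a positive fold change in A1cf KO, and the permutations ran across both genotypes. The r of this pair therefore includes the difference between genotypes, also within libraries 573 to 602, and its part was not tested. Genes of 1 library share its composition and depth, and 1.2% of 12671 genes had an r with Gpx3 at least as high as that of Gpx1, and 0.45% as high as that of Txnrd2. For r with Gpx1 the share was 0.347% for Txnrd2, 2.81% for Gpx4 and 4.56% for Dio1. For Txnrd2 it was 2.83% by r with Dio1 and 0.474% by r with Gpx4. For Sephs2 it was 1.19% by r with Sepp1.

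The marker sums of the nephron segments differed in which libraries were high or low. The summed level of 8 markers of the S1 and S2 segments of the proximal tubule was lowest in WT 777 (7670.4 CPM) and highest in WT 590 (12574 CPM), the same libraries as for Gpx3, Gpx1 and Txnrd2. The sum of 4 markers of the S3 segment did not follow this order: it was the second lowest of the 12 in WT 590 (2614 CPM), stood at 2969.7 CPM in WT 777, and was lowest in WT 776 (2321 CPM) and highest in WT 573 (3573 CPM). Gpx3 and the S1 and S2 sum did not go together in every library. Relative to their 12-library means they stood at 0.93 and 0.95 in WT 573. In WT 776 they stood at 1.06 and 0.82, in WT 778 at 1.10 and 0.87, and in A1cf KO 588 at 0.98 and 1.22. By genotype the S1 and S2 sum ran from 7670.4 to 12574 CPM in WT, and in A1cf KO from 8670.4 to 12256. A sum of CPM weighs the abundant markers most. Over the 12 libraries Slc34a1 averaged 4527 CPM and Miox 1540, while Slc5a2 averaged 183 and Slc5a12 160. The sum of 8 thick ascending limb markers was highest in WT 777 (7076 CPM), and ran from 4794 to 7076 CPM in WT and, in A1cf KO, from 3611 to 4610, without overlap. All 8 of those markers had a negative fold change with an unadjusted p under 0.05, against 5.28% of all genes tested. Of these 8, edgeR called 0, with Umod at 3084 ± 326 and 2218 ± 213 CPM (adjusted p = 0.106). DESeq2 called 4 of the 8, against 1.11% of the genes for which it gave an adjusted p. Its adjusted p-values were 5.61e-05 for Umod, 0.0074 for Tmem72, 0.00813 for Ppp1r1a and 0.0114 for Egf, and edgeR with 1 surrogate variable called Umod and Egf. The part of any of these segments in the values of the selenoprotein genes was not tested.

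**Figure D5:**
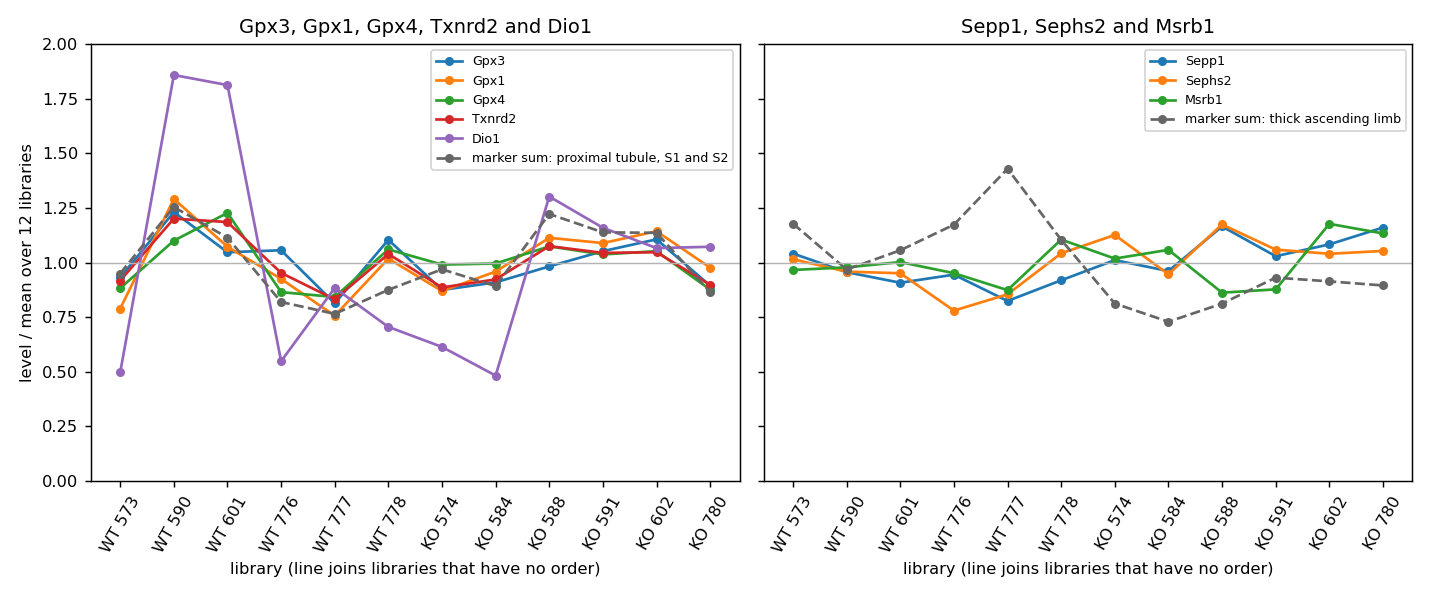
Level of each gene in each library divided by its mean over the 12 libraries (y axis), with the marker sum of a nephron segment as a dashed grey line. On the left, Gpx3, Gpx1 and Txnrd2, drawn with Gpx4 and Dio1, are lowest in WT 777 and highest in WT 590. So is the sum of the S1 and S2 proximal tubule markers, and Dio1 has the widest swings. In WT 776 and WT 778 Gpx3 lies above its mean and that sum below, and in A1cf KO 588 the reverse holds. On the right, with Msrb1 and the thick ascending limb sum, Sepp1 and Sephs2 are both highest in A1cf KO 588; lines join libraries that have no order.

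Markers of other cell types were summed in the same way. By genotype the sum of the S3 genes was 2868 ± 419.8 CPM for WT and 3077 ± 354 in A1cf KO. Sums ran from 45.7 to 161 CPM for 8 hepatocyte genes, with Ahsg at 0 in 9 libraries, and from 3.99 to 6.15 CPM for 5 adrenal cortex genes, with Cyp11b2 at 0 in all 12. Those of 6 red cell genes ran from 132 to 420 CPM and of 10 macrophage genes from 129.5 to 207.9 CPM. Macrophage genes had a median log2 fold change of 0.30, with 9 of 10 positive, 3 at an unadjusted p under 0.05 and 0 called by edgeR, while DESeq2 called Ctss (adjusted p = 0.00764). Of the hepatocyte genes edgeR called 0 and DESeq2 called Apoa2 (adjusted p = 0.00309). Over all genes tested, 49.2% had a positive fold change and 10.4% an unadjusted p under 0.05 by edgeR. DESeq2 called 1.11% of the genes for which it gave an adjusted p. The sum of 5 adipocyte genes ran from 0.75 CPM in A1cf KO 588 to 184 CPM in A1cf KO 602. Gpx3 was at 20337 CPM or more in every library, and the part of these cell types in the lower members was not tested.

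By pattern over the 12 libraries, the genes most like Gpx3 among 12671 were Trappc3, a vesicle tethering subunit (r = 0.93), Txndc17 and Txndc15, thioredoxin-domain proteins (both r = 0.92), and Gpi1, a glycolytic isomerase, and Psph, a serine synthesis enzyme (both r = 0.92). Without WT 590 and WT 777 these values fell to between 0.82 and 0.86. They were chosen as the highest of all genes and are given as a description, with no test. Gpx1 was most like Lman2l (0.94) and Grhpr (0.94), Gpx4 most like Smim22 (0.97) and Stra13 (0.95), and Dio1 most like Rnf10 (0.94) and Bcl7a (0.94). Txnrd2 was most like Msra (0.97), the selenium-free methionine sulfoxide reductase, and Ndufs6 (0.97), a subunit of respiratory complex I. Sephs2 was most like Slc22a6 (0.93), an organic anion transporter and 1 of the 8 proximal tubule markers above, and Depdc7 (0.92). Those 8 markers had 5 positive and 3 negative fold changes, from 0.23 in Slc22a6 to -0.38 in Slc22a8. Without WT 776 and WT 777 the r of Sephs2 was 0.80 with Slc22a6 and 0.77 with Depdc7. Sepp1 was most like Suclg2 (0.90) and Cmip (0.87), and Msrb1 most like Rpl3l (0.90) and Mustn1 (0.84). Without WT 777 and A1cf KO 588 the r of Sepp1 was 0.78 with Suclg2 and 0.77 with Cmip. With the mean of each genotype removed, r was 0.89 for Sephs2 and Slc22a6, 0.795 for Sepp1 and Suclg2, and 0.74 for Sepp1 and Cmip.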

How the data were processed

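The authors deposited 1 table of read counts per gene name for 12 kidney libraries. Per the file headers, featureCounts 1.5.0-p2 assigned reads to the exons of each gene name in GENCODE M8, with no strand, pair or duplicate option. Per the submitters' processing notes, STAR, DESeq2 and mm10 were used. Of counts from 2 to 9, 83.7% were even, against 54.1% of counts from 100 to 999, so a count is not 1 molecule. The tests were run with edgeR 4.0.16 in R 4.3.3 (filterByExpr by genotype, TMM, quasi-likelihood F test, no covariate). Log2 CPM used a prior count of 2, and RPKM used the length that the authors deposited with each gene. Depth, from 26671705 to 52899139 counts per library, limits mainly Dio2, Dio3 and Gpx2. Alternatives were other scalings and filters, DESeq2 1.42.0, limma-voom (limma 3.58.1), sva 3.50.0, the library number series (573 to 602, and 776 to 780) and leaving out each library. Named genes were the members, the selenoprotein family, A1cf, up to 3 genes with the smallest p and 2 with the highest CPM of each list, and those most alike by Pearson's r at a mean of at least 1 CPM. Not all genes of the rule are printed, and Secisbp2, Gpx5, Gpx7, Gpx8 and the markers at 0 were named after their values were seen. Members and lists were chosen with earlier results of these data known. Selenocysteine codons came from GENCODE M21 transcripts and annotation. The p-values of the genotype tests set the difference against the spread between these libraries. The permutation p-values set r or rho against values from shuffled libraries.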

Additional observations from a re-analysis of the deposited data

How the results depend on the processing

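Over the 23 alternatives, the edgeR, DESeq2 and limma-voom tests called 0 selenoprotein genes. The number of genes called over the whole table, 8, was 170 with the DESeq2 Wald test, 24 with the number series covariate and 20 with 1 surrogate variable, and from 6 to 12 when 1 library was left out; the cause was not tested. The log2 fold changes of Gpx3, Sepp1, Sephs2, Txnrd2 and Msrb1 kept their sign in all 23. The log2 fold change of Gpx3 ran from -0.15 (without WT 777) to -0.030 (without WT 590), that of Sepp1 from 0.11 to 0.23 and that of Sephs2 from 0.13 to 0.23. Gpx1 turned to -0.023 within libraries 573 to 602. Gpx4, at 0.012, turned to -0.060 with the number series covariate and -0.056 within libraries 573 to 602, and leaving out single libraries gave -0.030 to 0.081, below 0 in 5 of 12. For Dio1 the same gave -0.30 to 0.094. The smallest adjusted p of a member over these alternatives was 0.158, for Sepp1 by DESeq2. Scaling moved the median of all genes by less than 0.1. No paired analysis was possible because the library numbers are not shared between genotypes. Depth limits the lowest genes, Dio2, Dio3 and Gpx2.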
